A study of Mus musculus with 10 samples.

Results

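The 34 genes described here encode the enzymes and factors that read mitochondrial messenger RNA into protein: 16 mitochondrial aminoacyl-tRNA synthetases, 13 factors for initiation, elongation, termination, recycling, translational activation and membrane insertion, and 5 enzymes that modify mitochondrial tRNA. They were taken by symbol from a fixed list, drawn up with earlier results of these data known. All 34 were found among the 22553 genes of the count table. The study compared regulatory T cells (Treg), a CD4 T cell type defined by the factor Foxp3 and known for holding immune reactions in check, with and without TFAM, which coats mitochondrial DNA (mtDNA) and starts its transcription. Both groups were YFP-positive Treg sorted from female C57BL/6 littermates, taken from spleen and lymph nodes together, and both carried 1 copy of the Foxp3Yfp-Cre allele, in which the Foxp3 locus drives a YFP-Cre fusion. Control mice were Tfamfl/+Foxp3Yfp-Cre/+, so their sorted cells can lose 1 Tfam copy, and knockout (KO) mice were Tfamfl/flFoxp3Yfp-Cre/+. Foxp3 is X-linked, so females with 1 Cre allele also keep Treg that do not express it. Each of the 3 control and 3 KO libraries pooled cells of 2 to 3 mice, whose age is not given in the labels. The labels do not say which mice or days the pools came from, so the p-values reflect only how much the pools differed, and that spread may be technical in part.

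As background, mitochondria translate the few proteins of mtDNA with a ribosome, tRNAs and factors of their own. The ribosomal and transfer RNAs come from mtDNA, but the proteins of the apparatus are all encoded in the nucleus, made in the cytosol and imported. Synthetases charge each tRNA with its amino acid, and modifying enzymes change bases in and near the anticodon so that codons are read correctly. Initiation factors place formylmethionyl-tRNA on the ribosome, elongation factors deliver tRNAs and move the ribosome along, and release and recycling factors end the cycle. The products are subunits of the respiratory chain and ATP synthase, which are inserted into the inner membrane as they are made.

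The libraries held between 19087757 and 27490253 gene counts (n = 3 per group). Levels are given as CPM, counts scaled to a common library size with TMM factors that adjust for library composition, always in the order of replicates 1 to 3, and differences as log2 fold changes, KO minus control. Tfam itself stood at 25.9, 30.6 and 42.4 CPM in the control libraries and 15.6, 14.4 and 16.5 CPM in the KO libraries, for a log2 fold change, with its SE, of -1.09 ± 0.17 (adjusted p = 0.02, edgeR quasi-likelihood test with Benjamini-Hochberg adjustment), and no library went against its label. The Tfam call was lost when control replicate 2 or any KO library was left out (adjusted p = 0.0551 to 0.109), and with the replicate block its adjusted p was 0.000125. Counts were made over the whole gene, so part of the remaining signal can come from exons that Cre leaves in place. The Treg-defining genes Foxp3, Il2ra and Ctla4 were at 744, 313 and 223 CPM in control on average and at 818, 323 and 192 CPM in KO. They belong to a list of 6 Treg and T cell genes that also holds Ikzf2, Cd4 and Cd3e. Of these 6, 4 were fitted below 0 and 2 above 0. Without a block edgeR called 0 of them, and with same-numbered libraries as blocks it called 1 lower. Markers of other cells were present: 14 myeloid genes summed to 453 to 981 CPM in control and 519 to 1413 CPM in KO, highest in replicate 2 of each group; 13 of the 14 were tested (Itgam was under the filter), of which edgeR called 0, and 5 higher with same-numbered libraries as blocks. The B cell list of 6 genes summed to 549 to 578 CPM in control and 398 to 432 CPM in KO, almost all of it Ighm (called lower, adjusted p = 0.0134), with Pax5 below the filter on low counts. Of the 5 B cell genes tested, 2 were fitted below 0, Ighm among them, and 3 above 0, so the lower sum does not describe the list as a whole. The part of these other cells in the results was not tested. The 13 protein genes of mtDNA, whose messages these 34 genes translate, were listed at 0 in all 6 libraries. Whether their reads were removed before counting is not given in these sources, so the 0 is no measure of mtDNA transcription. In bulk RNA, fewer cells of a type and less RNA per cell cannot be told apart.

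The messages of these 34 genes of the mitochondrial translation apparatus differed little between KO and control Treg. All 34 genes passed the filter on low counts, with 42 to 4295 counts per gene and library, and 0 were called lower and 0 higher by edgeR at an adjusted p under 0.05, where 1.39% and 0.1% of all 11990 tested genes were called in those directions. DESeq2 and limma-voom also called 0 of the 34. At an unadjusted p under 0.05, 1 of the 34 was lower (Fars2) and 2 were higher (Mars2 and Tars2), against 7.22% and 5.4% of all tested genes. The median log2 fold change of the 34 was 0.02, against -0.005 over all tested genes, and the fitted values lay between -0.34 (Fars2) and 0.27 (Mars2). Fitted values were below 0 in 16 and above 0 in 18 of the 34, where 51.2% of all tested genes were below. The 95% interval included 0 for 31 of the 34, against 87.4% of all tested genes. The data also bound the differences: for 33 of the 34 the 95% interval lay within 1.5-fold either way, which held for 72.2% of all tested genes. The exception was Mtrf1, the member with the fewest counts. Genes were not matched on level for this comparison, and intervals are wider at low counts.

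**Figure D1:**
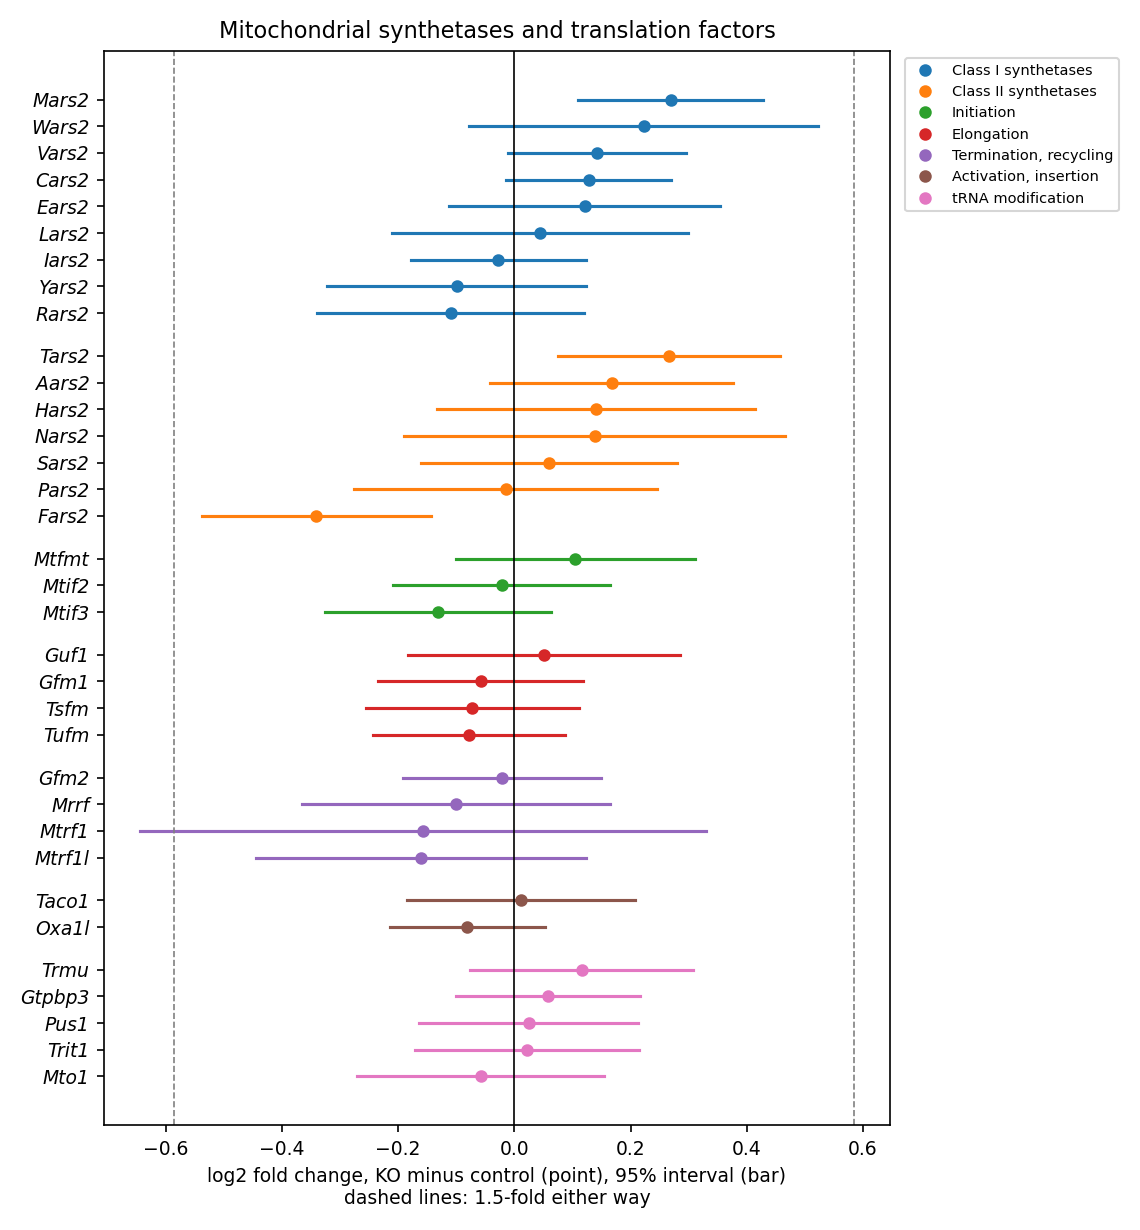
Log2 fold change, KO minus control, of each of the 34 genes (points) with its 95% interval (bars), by role, from 3 libraries per group; dashed lines mark 1.5-fold. Every point lies between -0.34 and 0.27, and the intervals of 31 of the 34 genes, from the fit without the replicate block, include 0.

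Same-numbered control and KO libraries deviated together from their group means, so the comparison was also fitted with the replicate number as a block. With the block, edgeR called 1 of the 34 lower and 2 higher, against 4.39% and 1.97% of all tested genes. These 3 were Fars2, Mars2 and Tars2, all of them synthetases. DESeq2 with the block called 1 of the 34, Tars2 (adjusted p = 0.0365), with adjusted p of 0.185 for Fars2 and 0.243 for Mars2. In a design of 3 libraries per group, the levels of KO lay wholly above those of control for 5 of the 34 (Cars2, Mars2, Vars2, Tars2 and Trmu) and wholly below for 3 (Fars2, Mtif3 and Oxa1l), where 8.63% and 10.4% of all tested genes did so.

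Fars2 (ENSMUSG00000021420), the phenylalanyl-tRNA synthetase of mitochondria, had the lowest fitted value of the 34. It stood at 24.1, 26.6 and 28.3 CPM in the control libraries and 20.7, 21.4 and 20.2 CPM in the KO libraries. Each KO library was below each control library, and the KO libraries lay close together. The log2 fold change was -0.34 ± 0.09 (SE, 95% interval -0.54 to -0.14, adjusted p = 0.128), and with the replicate block it fell by 0.34 on the log2 scale, with an edgeR adjusted p of 0.0312. Its 3 same-numbered pairs differed by -0.22, -0.31 and -0.49. With the block the call was lost whichever pair of libraries was left out, at -0.39 (adjusted p = 0.0566) without replicates 1, -0.35 (adjusted p = 0.0578) without replicates 2 and -0.26 (adjusted p = 0.169) without replicates 3. The span of Fars2 overlaps a long non-coding RNA gene model, Gm40912, in RefSeq, and reads from both could share a count if both were annotated.

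Mars2 (ENSMUSG00000046994), which charges the methionine tRNA used for both initiation and elongation, had the highest fitted value. Its levels were 24.98, 25.5 and 26.6 CPM in the control libraries and 30.8, 30.7 and 31.4 CPM in the KO libraries. The 3 KO libraries spanned less than 1 CPM and lay above every control library. The log2 fold change was 0.27 ± 0.07 (SE, 95% interval 0.11 to 0.43, adjusted p = 0.139), and with the block Mars2 was called higher, at 0.27 ± 0.07 (SE, edgeR adjusted p = 0.0427). Within the same-numbered pairs the differences were 0.30, 0.27 and 0.24. Leaving out a pair changed the size little but lost the call, at 0.27 (adjusted p = 0.152), 0.27 (adjusted p = 0.109) and 0.29 (adjusted p = 0.11) without replicates 1, 2 and 3.

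Tars2 (ENSMUSG00000028107), the threonyl-tRNA synthetase, stood at 165, 137 and 145 CPM in the control libraries and 173, 174 and 192 CPM in the KO libraries. Control replicate 1 was the highest control library and came close to the lowest KO library. The log2 fold change was 0.27 ± 0.08 (SE, 95% interval 0.07 to 0.46, adjusted p = 0.232), and with the block it was called higher, at 0.27 ± 0.07 (SE, edgeR adjusted p = 0.0412). The differences within pairs 1 to 3 were 0.07, 0.34 and 0.40, so replicate 1 showed the smallest. With the block and without replicates 1 the value was 0.38 (adjusted p = 0.0145). It was 0.23 (adjusted p = 0.133) without replicates 2, the libraries with the most myeloid RNA, and 0.20 (adjusted p = 0.186) without replicates 3.

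**Figure D2:**
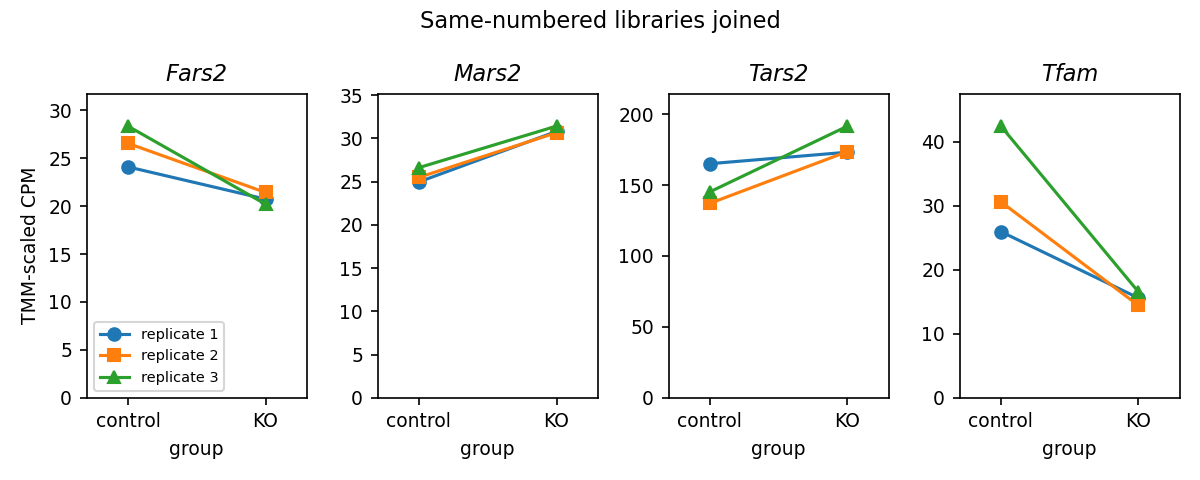
Levels (TMM-scaled CPM, axes from 0) of Fars2, Mars2, Tars2 and the targeted gene Tfam in control and KO, with same-numbered libraries joined by lines. Fars2 was lower and Mars2 and Tars2 higher in KO in 3 of 3 pairs. Their log2 fold changes (-0.34, 0.27 and 0.27) were smaller in size than that of Tfam (-1.09). Tfam dropped from between 25.9 and 42.4 CPM to between 14.4 and 16.5 CPM.

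The promoters of these 3 genes are shown because they are the members that any fit called. Each line gives 300 bases, from 250 before to 50 after the annotated start, 5′ to 3′ on the gene's strand, from RefSeq on GRCm38.p6; capitals mark matches to the motifs searched.
Mars2 (chr1:55236927-55237226, plus strand): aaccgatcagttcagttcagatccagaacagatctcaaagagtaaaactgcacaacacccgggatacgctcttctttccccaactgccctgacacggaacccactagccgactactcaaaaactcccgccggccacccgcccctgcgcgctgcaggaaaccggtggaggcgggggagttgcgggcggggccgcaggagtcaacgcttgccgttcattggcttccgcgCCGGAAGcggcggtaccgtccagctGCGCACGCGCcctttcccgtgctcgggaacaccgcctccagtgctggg
Tars2 (chr3:95754928-95755227, minus strand): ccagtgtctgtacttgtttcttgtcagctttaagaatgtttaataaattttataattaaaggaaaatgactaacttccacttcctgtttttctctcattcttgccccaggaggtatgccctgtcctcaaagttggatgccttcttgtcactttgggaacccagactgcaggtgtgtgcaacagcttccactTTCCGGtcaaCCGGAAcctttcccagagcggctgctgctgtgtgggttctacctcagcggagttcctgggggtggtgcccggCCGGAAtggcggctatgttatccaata
Fars2 (chr13:36117393-36117692, plus strand): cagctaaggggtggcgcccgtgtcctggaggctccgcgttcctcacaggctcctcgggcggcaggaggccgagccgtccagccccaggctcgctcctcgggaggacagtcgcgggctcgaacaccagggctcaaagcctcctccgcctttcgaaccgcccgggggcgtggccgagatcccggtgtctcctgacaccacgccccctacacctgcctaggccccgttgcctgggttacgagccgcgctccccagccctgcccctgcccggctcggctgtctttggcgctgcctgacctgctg
The search covered both strands and 7 spellings, some of them nested, so their counts are not independent. For ETS factors such as GABP they were CCGGAAG and its shorter core CCGGAA. For NRF1 they were GCGCA and GCGC parted by any 1 base, the same with T as that base, and GCGCATG, the start of the latter. The others were TGATGNAA, part of the element bound by ATF4, and the E-box CACGTG. GABP and NRF1 are known as activators of nuclear genes for mitochondrial proteins. Mars2 held CCGGAAG and the first NRF1 spelling, Tars2 held CCGGAA at 3 places but none of the other 6 spellings, and Fars2 held none of the 7. Of the 34 members 30 had a promoter in the table (Hars2, Pars2, Mtif3 and Guf1 did not match). CCGGAAG was in 8 of these 30 (26.7%), namely Cars2, Gfm1, Mars2, Mtif2, Rars2, Sars2, Trmu and Tufm, against 9.93% of the promoters of 27025 genes. The shorter CCGGAA was in 12 of 30 (40.0%), against 16.7%. The NRF1 spelling with any base was in 4 of 30 (13.3%), in Gfm2, Iars2, Mars2 and Oxa1l, against 5.19%. With T as that base it was in 0 of 30, against 1.07%, while GCGCATG was in 5 of 30 (16.7%, Mtfmt, Rars2, Trit1, Vars2 and Wars2), against 4.41%. TGATGNAA was in 0 of 30, against 4.51%, and CACGTG was in 2 of 30 (6.67%, Ears2 and Pus1), against 8.09%. The members' promoters were richer in G and C, with a median of 57.8% over their 32 windows against 52.7% over all windows. They also held more CpG (C followed by G), with a median of 18.5 per window against 7.0 over all windows. All the ETS and NRF1 spellings contain CpG, and the shares were not matched on base composition or CpG. A match describes the letters and is no evidence of binding.

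The other class I synthetases, which share a Rossmann-fold catalytic domain, were not called; of the 9 class I members with Mars2 included, 6 were fitted above 0, with a median of 0.12. Vars2, for valine, was at 69.1, 63.5 and 70.6 CPM in control and 76.00, 76.5 and 71.9 CPM in KO, with a log2 fold change of 0.14 ± 0.07 (SE, 95% interval -0.01 to 0.30, adjusted p = 0.428). Cars2, for cysteine, was at 51.8, 53.2 and 50.8 CPM in control and 56.4, 58.6 and 55.2 CPM in KO, and its value was 0.13 ± 0.06 (SE, 95% interval -0.01 to 0.27, adjusted p = 0.444). Both genes had every KO library above every control library, with fitted ratios of 1.10 and 1.09. Rars2, for arginine, had the lowest value of the class, -0.11 ± 0.10 (SE, 95% interval -0.34 to 0.12, adjusted p = 0.703). Its libraries overlapped, at 26.7, 32.3 and 31.96 CPM in control and 26.5, 27.2 and 30.8 CPM in KO. Wars2, for tryptophan, was one of the least counted synthetases, at 6.57, 7.59 and 6.36 CPM in control and 7.30, 8.08 and 8.55 CPM in KO, and its value of 0.22 ± 0.13 carried a wide interval (-0.08 to 0.52). Ears2 (glutamate), Lars2 (leucine), Iars2 (isoleucine) and Yars2 (tyrosine) had log2 fold changes of 0.12, 0.04, -0.03 and -0.10, with overlapping groups and adjusted p between 0.676 and 0.908.

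Class II synthetases, built on another catalytic fold, had a median of 0.14 over 7 genes, with 5 fitted above 0. Besides Tars2 and Fars2, which stood at the ends of the class, Aars2, for alanine, was at 29.6, 27.1 and 25.2 CPM in control and 31.7, 32.2 and 28.1 CPM in KO (0.17 ± 0.09, adjusted p = 0.494), so only the lowest KO library lay within the control range. Hars2, for histidine, was at 38.04, 36.3 and 40.7 CPM in control and 37.96, 38.1 and 50.9 CPM in KO. Its value of 0.14 ± 0.12 came from KO replicate 3, and the other two KO libraries lay within the control range. Nars2 (asparagine) and Pars2 (proline) had values of 0.14 ± 0.14 and -0.01 ± 0.11. Sars2, for serine, had a value of 0.06 ± 0.10.

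The 16 synthetases together summed to 659, 629.5 and 657 CPM in the control libraries and 684, 698 and 711 CPM in the KO libraries. Every KO library was above every control library. Tars2 held the most counts of the 16, and without it the sum over 15 synthetases was 494, 492 and 511 CPM in the control libraries and 511, 524 and 519 CPM in the KO libraries, where the lowest KO library lay just under the highest control library. No test was made on these sums. Over the 18 members that are not synthetases the median log2 fold change was -0.04, with 11 fitted below 0, and their unadjusted p was under 0.05 in 0 of 18 genes by edgeR. The difference between the synthetases and the other members was not tested.

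Initiation had 3 members, none called by edgeR with or without the block. Mtfmt, the enzyme that formylates methionyl-tRNA, was at 24.98, 24.7 and 27.1 CPM in control and 26.2, 26.00 and 30.4 CPM in KO, with a log2 fold change of 0.11 ± 0.09 (SE, 95% interval -0.10 to 0.31, adjusted p = 0.68). KO replicate 3 was the highest library and the others overlapped. Mtif3, an initiation factor that helps part the ribosomal subunits, was at 19.6, 19.5 and 22.1 CPM in control and 18.4, 18.8 and 18.6 CPM in KO. Its groups did not overlap, but the gap was small and the value was -0.13 ± 0.09 (SE, 95% interval -0.33 to 0.06, adjusted p = 0.57). The span of Mtif3 overlaps Gtf3a in RefSeq. Mtif2, the GTPase that brings the initiator tRNA to the ribosome, had a value of -0.02 ± 0.08 (adjusted p = 0.947).

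Elongation factors overlapped between the groups in all 4 genes. Tufm, the mitochondrial EF-Tu that delivers charged tRNAs, was at 44.1, 39.7 and 42.9 CPM in control and 39.6, 41.7 and 38.8 CPM in KO, and its log2 fold change was -0.08 ± 0.07 (SE, 95% interval -0.24 to 0.09, adjusted p = 0.703). Its exchange factor Tsfm had -0.07 ± 0.08, and the translocase Gfm1 -0.06 ± 0.08. Guf1, a ribosome-dependent GTPase related to elongation factors, was at 20.1, 21.3 and 21.6 CPM in control and 19.8, 20.8 and 24.9 CPM in KO. Its value of 0.05 ± 0.10 rested on KO replicate 3, and turned to -0.05 in the fit without that library.

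All 4 termination and recycling members had fitted values below 0, with a median of -0.13, and all 4 had overlapping groups. Mtrf1l, the release factor that reads standard stop codons, was at 16.4, 18.6 and 19.5 CPM in control and 14.3, 15.6 and 18.9 CPM in KO. Its log2 fold change was -0.16 ± 0.12 (SE, 95% interval -0.44 to 0.12, adjusted p = 0.645), and KO replicate 3 lay within the control range. Its relative Mtrf1 was the least counted member, with 56, 67 and 64 counts in control and 52, 48 and 42 counts in KO. Its interval ran from -0.64 to 0.33, so a level 1.5-fold lower in KO lay within it. The recycling factor Mrrf had -0.10 ± 0.12, and Gfm2, the GTPase that acts with it to split the ribosome, was at 39.9, 42.1 and 39.96 CPM in control and 37.03, 41.8 and 41.3 CPM in KO (-0.02 ± 0.07 (SE, 95% interval -0.19 to 0.15, adjusted p = 0.942)). The span of Mrrf overlaps Rbm18.

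Taco1, which activates translation of the COX1 message, had the value nearest to 0 of all 34 genes, at 16.8, 15.9 and 16.7 CPM in control and 15.7, 17.3 and 16.8 CPM in KO (0.01 ± 0.09 (SE, 95% interval -0.18 to 0.21, adjusted p = 0.972)). Oxa1l, the insertase that places new proteins into the inner membrane, was at 110.4, 115 and 112 CPM in control and 104, 109.7 and 105 CPM in KO. Its KO libraries were all below its control libraries, by a log2 fold change of -0.08 ± 0.06 (SE, 95% interval -0.21 to 0.05, adjusted p = 0.614). The span of Oxa1l overlaps Slc7a7.

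Of the tRNA-modifying enzymes, 4 of 5 were fitted above 0 and none was called with or without the block. Trmu, which adds sulfur to the wobble uridine of several mitochondrial tRNAs, was at 16.3, 16.4 and 16.4 CPM in control and 18.1, 16.7 and 18.4 CPM in KO. The 3 control libraries were nearly identical and lay below all KO libraries, and the log2 fold change was 0.12 ± 0.08 (SE, 95% interval -0.08 to 0.31, adjusted p = 0.614). Mto1 and Gtpbp3 form the complex that installs the taurine-based group on the same base. Mto1 was at 26.3, 26.7 and 28.9 CPM in control and 23.8, 26.00 and 29.02 CPM in KO (-0.06 ± 0.09 (SE, 95% interval -0.27 to 0.16, adjusted p = 0.843)), and Gtpbp3 had 0.06 ± 0.07. Trit1, which isopentenylates an adenosine next to the anticodon, and Pus1, a pseudouridine synthase, had 0.02 ± 0.08 and 0.02 ± 0.08. Both enzymes act on cytosolic tRNAs as well.

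The coefficient of variation over the 3 libraries had a median of 6.21% in control and 5.16% in KO, against 8.98% and 8.08% over all tested genes. It was above the median of all tested genes for 10 of the 34 in control and 7 in KO, and genes were not matched on level for this. In control it was lowest for Trmu (0.40%) and highest for Mtrf1 (18.8%). In KO the highest was Hars2 (17.5%), through replicate 3. The 34 genes together summed to 1244, 1218 and 1276 CPM in the control libraries and 1254, 1286 and 1309.6 CPM in the KO libraries, and the groups overlapped. Within same-numbered pairs 1 to 3 the median difference of the 34 was 0.01, 0.03 and 0.01 on the log2 scale. Of the 34, 8 were higher in all 3 pairs and 5 lower, where 21.6% and 23.7% of all tested genes were.

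**Figure D3:**
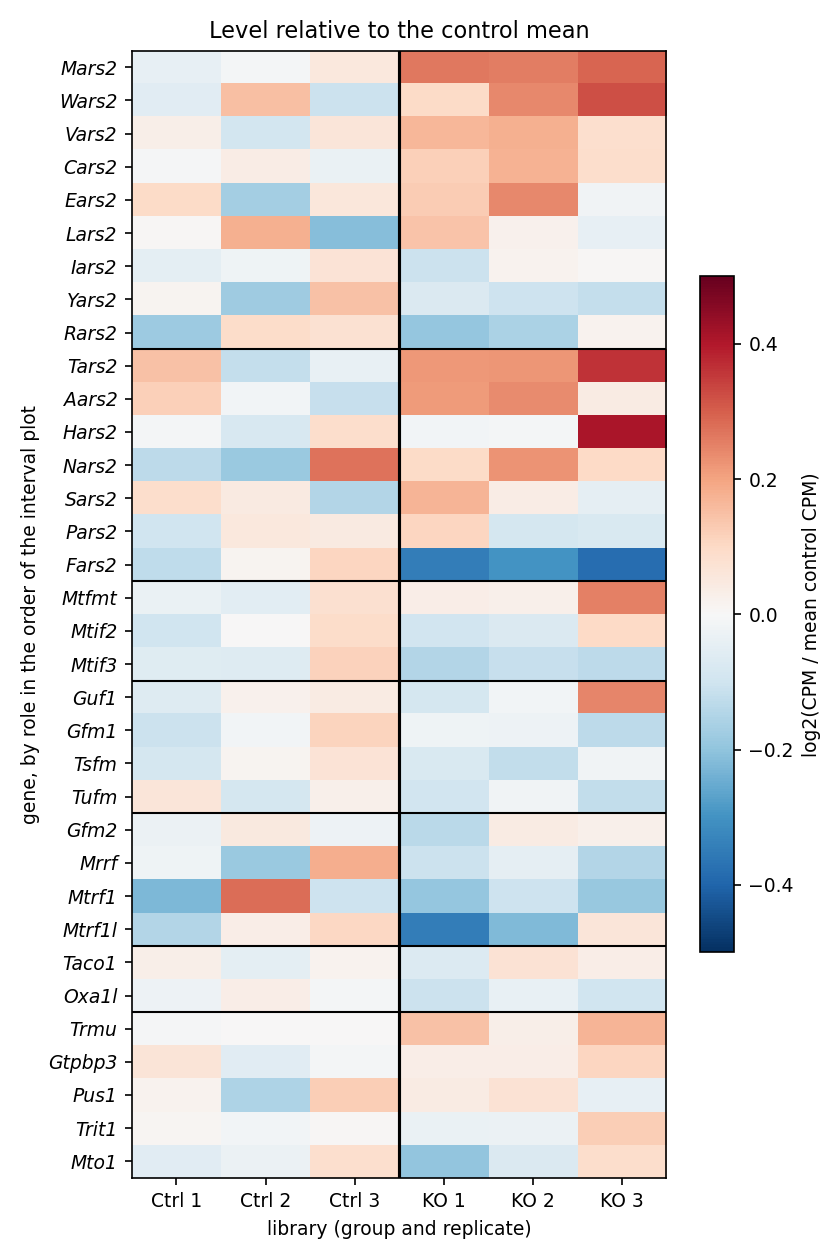
Level of each of the 34 genes in each library, as log2 of CPM over the mean control CPM (color scale from -0.5 to 0.5), genes in rows by role and libraries in columns. In all 3 KO libraries 10 of the 34 genes lie above the control mean, Mars2 and Tars2 among them, and 9 lie below it, Fars2 among them, while the KO libraries of the other 15 lie on both sides of it; Hars2 stands out in KO replicate 3 (50.9 CPM against 37.96 and 38.1 CPM).

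The cytosolic synthetases, which charge tRNAs for the ribosomes outside mitochondria, had 0 of 18 genes called by edgeR, DESeq2 or limma-voom, with 1 lower and 2 higher at an unadjusted p under 0.05, and a median log2 fold change of -0.02. With the block edgeR called 1 of 18 lower, Wars1 (listed as Wars in the name table), at -0.27 (adjusted p = 0.0323). Wars1, for tryptophan, was at 100.4, 78.5 and 83.6 CPM in control and 73.04, 69.97 and 73.1 CPM in KO, so its groups did not overlap. DESeq2 with the block did not call it (adjusted p = 0.0993), nor did edgeR with the block without replicates 1 or 3, while the call held without replicates 2. Cars1, for cysteine, had the highest value of the list, 0.23 ± 0.07 (SE, 95% interval 0.06 to 0.39, adjusted p = 0.231). Set against its cytosolic counterpart for the same amino acid, Tars2 differed from Tars1 by 0.31 in log2 fold change (0.27 against -0.05), and Mars2 from Mars1 by 0.19. Fars2 lay below Farsa and Farsb, the 2 chains of the cytosolic enzyme, with differences of -0.38 and -0.33, where these stood at 0.04 and -0.01. The widest gap was for tryptophan, with Wars2 at 0.22 and Wars1 at -0.28. Over the 15 comparisons the mitochondrial gene had the higher value in 9 and the lower in 6, with a median difference of 0.09. Fars2 entered against each of the 2 chains and so supplied 2 of the 6 lower values. Ears2 and Pars2 were left out because 1 cytosolic protein, Eprs1, charges both of their tRNAs. These differences were not tested.

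**Figure D4:**
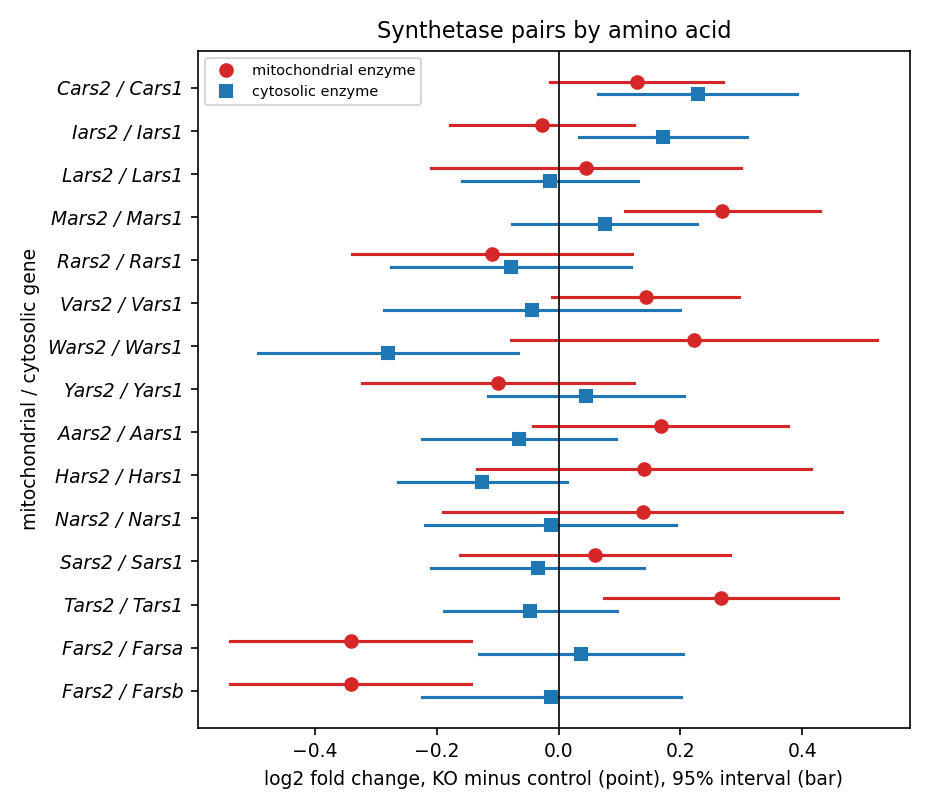
Log2 fold changes, KO minus control, with 95% intervals for mitochondrial synthetases (circles) and the cytosolic enzyme for the same amino acid (squares), from 3 libraries per group. The intervals of a pair overlap except for Fars2 and Farsa; Fars2 (-0.34) lies left of Farsa and Farsb, and Tars2 (0.27) right of Tars1 (-0.05).

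Other parts of the pathway were followed through 45 further genes for mitochondrial tRNA charging, tRNA and ribosomal RNA modification, ribosome assembly, termination and translational control. Of these, 42 were matched and tested. The list does not cover the ribosomal proteins as a set. By edgeR, DESeq2 and limma-voom 0 of the 42 were called, with 2 lower and 4 higher at an unadjusted p under 0.05 by edgeR, and the median log2 fold change was 0.03. With the block, edgeR called 1 of them higher, Metap1d, which removes the first methionine from mitochondrial proteins. It was at 26.3, 24.4 and 22.1 CPM in control and 32.04, 27.8 and 28.9 CPM in KO, and with the block its value was 0.29 ± 0.07 (SE, edgeR adjusted p = 0.0437). The call was absent in DESeq2 with the block (adjusted p = 0.228) and in blocked edgeR fits without replicates 1 or 3, and present without replicates 2, where Cdk5rap1 of the same list was called too. Metap1d also had the highest value of the list without the block, 0.29 ± 0.09 (SE, 95% interval 0.07 to 0.50, adjusted p = 0.257). The lowest was Gtpbp10, a ribosome assembly GTPase, at 2.00, 2.05 and 2.08 CPM in control and 1.35, 1.27 and 1.57 CPM in KO (-0.55 ± 0.21 (SE, 95% interval -1.03 to -0.06, adjusted p = 0.336)). Its groups did not overlap. Lrpprc, which with Slirp stabilizes mitochondrial messages, had 0.13 ± 0.09; it was named after its value was seen.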

How the data were processed

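The authors deposited 1 table of HTSeq counts (the tool per the labels) from poly(A) RNA, with whole-gene counts for each RNA library. Without roles, the submitters' processing notes list bedtools, SAMtools, Bowtie2, HISAT2, DESeq2 and Cufflinks, and as builds mm9 and mm10. Their versions, the annotation and the strand setting were not given in the sources used here, so genes that overlap on opposite strands may share reads. By their RefSeq spans, 9 of the 34 members overlap a protein-coding gene, 7 of them by at least 100 bases. The 4 ATAC-seq samples were not analysed here. Of 22553 Ensembl IDs, 22522 matched a symbol.

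The test was edgeR's (4.0.16, R 4.3.3; filterByExpr, minimum count 10 and total 15; TMM; quasi-likelihood F test; Benjamini-Hochberg adjustment over 11990 genes; calls at an adjusted p under 0.05). Standard errors came from the F statistic and 95% intervals from its degrees of freedom, with no adjustment for the number of genes. Within-pair differences are on log2(CPM) with a prior count of 2. A count of 3 equals 0.109 to 0.157 CPM; such precision covers counting error only. No pair of libraries within a group matched to within counting noise (chi-square per degree of freedom 8.75 to 27.4), so none was treated as a duplicate; separate preparations of 1 RNA could also exceed counting noise. Deviations from the group means correlated at 0.30, 0.58 and 0.54 in same-numbered pairs 1 to 3 across genes. Between differently numbered control and KO libraries the correlations lay between -0.55 and 0.02. The numbers were therefore taken to pair the libraries, and blocked fits are given where they change a call. Myeloid RNA was highest in replicate 2 of both groups, and its part in these correlations was not tested. Alternatives were DESeq2 1.42.0, limma-voom (limma 3.58.1), RLE factors, no filter on low counts, the replicate block, and leaving out libraries; blocked fits without a pair were added after seeing the data. The scripts were checked on simulated data. Of the 7 promoter motif spellings, 2 (CCGGAA and GCGCATG) were tried while exploring, and all 7 are reported. Genes with full values were those called with or without the block, the 5 with the smallest p, and the highest and lowest of each role; values of other members were added so that all 34 are accounted for. Members, lists and motifs were chosen with earlier results of these data known.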

Additional observations from a re-analysis of the deposited data

How the results depend on the processing

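Of the 34 members, 0 were called with RLE factors, DESeq2, limma-voom, no filter on low counts, each library left out in turn, or without both libraries numbered 2; the lowest adjusted p of any member lay between 0.0877 and 0.388 with 1 library left out. With the replicate block edgeR called 1 lower and 2 higher and DESeq2 called 1 higher (Tars2); edgeR called 1 of the other mitochondrial translation genes and 1 of the cytosolic synthetases. With the block and 1 pair left out, edgeR called 0 members lower and between 0 and 1 higher, the 1 being Tars2 without replicates 1. The block changed no other call on the members. The median of the 34 moved between -0.018 (without KO replicate 3) and 0.036 (without control replicate 1), and was -0.0074 without both libraries numbered 2, so its sign is not settled. Tfam lay between -1.22 and -0.87 with 1 library left out, with adjusted p up to 0.109 (without KO replicate 1), and at -1.09 (adjusted p = 0.123) without both libraries numbered 2; fewer samples enter these fits. Fars2, Mars2, Tars2, Cars2, Vars2, Mtif3, Oxa1l and Trmu kept their direction in all 13 alternatives. For these genes the groups did not overlap, so leaving out libraries could hardly turn the direction, and all alternatives reuse the same counts. Rars2, Mtfmt, Tufm and Mtrf1l, with overlapping groups, also kept theirs in all 13. Guf1 and Mto1 did so in 12, Gfm2 in 11 and Taco1 in 10. Over all genes, 167 were called lower and 12 higher, against 526 and 236 with the block, 261 and 72 by DESeq2, 136 and 3 by limma-voom, and 26 and 0 without KO replicate 1.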
